A study of Rattus norvegicus with 8 samples.

Results

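The appetite neuropeptides of the arcuate nucleus examined here were Agrp, Npy, Pomc, Cartpt, Kiss1 and Tac3, taken from the data by gene symbol. Of these 6 genes, 5 had rows under their symbol, with 8 of the 98356 polyadenylation sites and 5 of the 18003 gene symbols in the data. Npy was not analysed here. The data were 8 libraries of whole transcriptome termini site sequencing (WTTS-Seq), which reads the 3′ ends of polyadenylated RNA, from the hypothalamus of adult male Long-Evans rats. The 4 cannabis-exposed rats had breathed vaporized whole cannabis plant matter before tissue collection, while the 4 air-treated controls went through the procedure with no plant matter loaded. All were free-feeding before exposure and without food for the hour between exposure and tissue collection. The methods give more rats a group than there are libraries here and do not say whether any were pooled, so each library is called a rat below and P-values cover the spread between libraries. The labels number the controls 1, 2, 3 and 4 and the cannabis-exposed rats 1, 2, 3 and 5. The series describes the tissue as mediobasal hypothalamus, so arcuate neurons were 1 population among many, and in such bulk tissue fewer cells of a type and less RNA per cell cannot be told apart.

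The arcuate nucleus lies at the base of the hypothalamus and reads hormonal signals of energy stores. Its AgRP neurons, which also make neuropeptide Y, drive feeding, whereas its POMC neurons, many of which also make CART in the rat, restrain it. The peptide α-MSH, cut from the POMC precursor, activates the melanocortin receptors Mc3r and Mc4r, and AgRP opposes it at the same receptors. Another population makes kisspeptin (Kiss1), neurokinin B (Tac3) and dynorphin and times the release of gonadotropin-releasing hormone.

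None of the 5 genes differed between cannabis-exposed rats and controls beyond the spread between rats. By the means of log2 values, Agrp was 1.39-fold, Cartpt 1.29-fold and Pomc 1.27-fold of the control level. On that scale Tac3 was at 0.887 and Kiss1 at 0.941 of the control level, and every 95% interval included no change. In the limma fit over all gene symbols, 0 of the 5 gene totals had P under 0.01 and 0 had P under 0.05, where 0.278% of the 18003 gene symbols had P under 0.01. In all 5 genes the groups overlapped, where 1.98% of gene symbols had groups that did not overlap. The edgeR and DESeq2 tests on recovered reads likewise gave 0 of 5 at P under 0.01. These values are normalized counts, the reads on a site divided by the size factor of the library, summed over the sites of a gene. Each read marks a 3′ end and not a stretch of the transcript, so levels of different genes were compared without dividing by length. The library protocol includes PCR, and reads copied from the same molecule were not told apart. Counting errors below take each read as independent. Fold changes are those of normalized count + 1, the scale on which limma was run.

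Libraries had from 1159811 to 3706778 reads on sites, fewest in air control 4. Every gene symbol of the group had at least 10 reads in every library, from 117 reads in all for Kiss1 to 11446 for Cartpt, so Cartpt was measured with far more precision than Kiss1. Markers of other regions were present and varied between rats. Of the ventral midbrain dopamine markers Slc6a3, Th, En1, Pitx3, Foxa1 and Foxa2, 5 had sites and 3 were lower with cannabis at P under 0.01 (Slc6a3, Th and En1), and their summed level was 545 to 746 normalized counts in controls and 101 to 241 in cannabis-exposed rats. Of the paraventricular and supraoptic markers Avp, Oxt, Sim1 and Crh, Avp and Oxt were higher at P under 0.01. Sim1 had a mean of 98.1 normalized counts in controls and 76.7 with cannabis, and Crh 4.30 and 5.14, neither at P under 0.01. The summed level, most of it Avp and Oxt, went from 1628 to 4051 in controls and from 5018 to 7473 in cannabis-exposed rats. The markers of lateral, ventromedial and mammillary hypothalamus had no gene at P under 0.01, nor had those of cortex, hippocampus or thalamus, tanycytes or choroid plexus. The cause of these marker differences, and their part in the values below, was not tested.

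Agrp encodes the orexigenic agouti-related peptide, which in the hypothalamus is made in the arcuate nucleus. Its gene total in controls 1, 2, 3 and 4 was 31.4, 34.7, 26.2 and 53.6 normalized counts. In cannabis-exposed rats 1, 2, 3 and 5 it was 59.6, 51.1, 34.4 and 56.1. Thus 3 of the 4 cannabis-exposed rats lay above the control mean, cannabis 3 lay among the controls, and control 4 lay within the cannabis range. The mean was 36.5 ± 11.9 (SD, n = 4) without and 50.3 ± 11.1 (SD, n = 4) after cannabis. The log2 fold change was 0.47 (standard error 0.30, 95% interval -0.17 to 1.12, P = 0.137 and adjusted P = 0.999 from limma), and an exact permutation test over all 70 splits of the rats, two-sided, gave P = 0.143. The smallest P that this design allows is 0.0286. As a fold, the interval ran from 0.888 to 2.17. Without air control replicate 4 the log2 fold change was 0.67, with an unadjusted P of 0.0383 in the limma fit over all gene symbols, where the exact permutation test was not run.

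**Figure D1:**
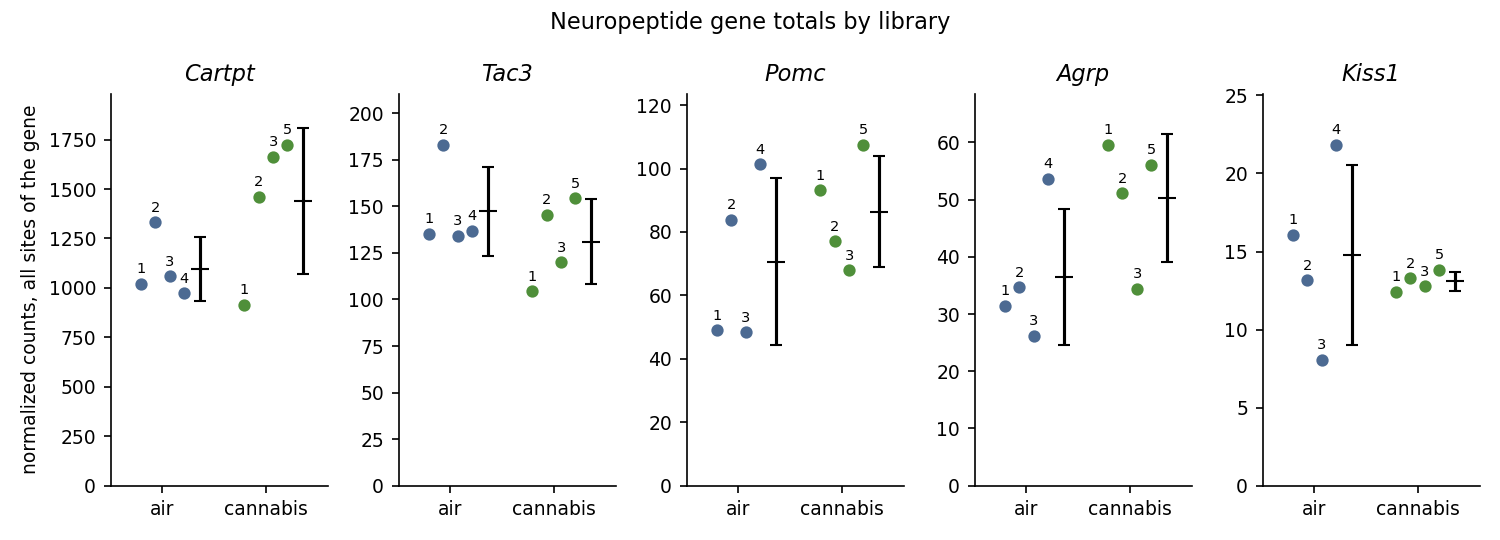
Normalized counts summed over all sites of each neuropeptide gene (vertical axis, from 0, with its own scale in each panel) in the 4 air-treated control and 4 cannabis-exposed libraries; points carry the replicate numbers of the labels, and the bar beside them is the mean ± SD. The groups overlap for all 5 genes, with Agrp means of 36.5 and 50.3 and Cartpt means of 1096 and 1441.

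Agrp reads fell on 2 sites, of which the first held 95.4% of all its reads. The second site had 0 to 4 reads per library and none in control 3. At the first site controls had 29.2, 33.5, 26.2 and 49.6 normalized counts and cannabis-exposed rats 54.6, 49.8, 33.5 and 53.0, with a log2 fold change of 0.47 (P = 0.239 from limma; exact permutation test, P = 0.0857). The first site took 95.5% ± 3.46 (SD, n = 4) of Agrp reads without and 95.2% ± 2.68 (SD, n = 4) after cannabis (exact permutation test, P = 0.83).

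Pomc encodes proopiomelanocortin, the precursor of the anorexigenic α-MSH and of β-endorphin. It had a single site, with 49.0, 83.8, 48.3 and 101 normalized counts in controls 1, 2, 3 and 4. The cannabis-exposed rats 1, 2, 3 and 5 had 93.1, 77.1, 67.9 and 108. Controls 1 and 3 were the lowest of the 8 rats and cannabis 5 the highest, but controls 2 and 4 lay inside the cannabis range. Means were 70.6 ± 26.3 (SD, n = 4) and 86.4 ± 17.5 (SD, n = 4), and the log2 fold change of the gene total was 0.34 (95% interval -0.28 to 0.96, P = 0.261 from limma; exact permutation test, P = 0.371).

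Pomc is also made in the pituitary, which lies directly beneath the arcuate nucleus. Of the pituitary markers Gh1, Prl, Cga, Lhb, Tshb, Fshb, Pou1f1 and Tbx19, 5 had sites and none had P under 0.01, and their summed level was 128 to 824 normalized counts in controls and 203 to 703 with cannabis. Cga, the subunit shared by the glycoprotein hormones, had from 101 to 688 normalized counts in controls and from 182 to 619 in cannabis-exposed rats, and Tshb had from 11.4 to 122 and from 2.95 to 92.3. Pou1f1, which defines the lineage of several anterior pituitary cell types, had at most 4.70 normalized counts in a library. Gh1, Prl and Tbx19 were not analysed here. Lhb ranged less, from 9.40 to 19.0 in controls and from 9.96 to 17.4 with cannabis, and Fshb had at most 3.94 in a library. Cga and Tshb thus varied several-fold between rats of the same group, and the part of the pituitary markers in the Pomc values was not tested.

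Cartpt, the precursor of the peptides named for cocaine- and amphetamine-regulated transcript, was by far the most abundant of the group, with a higher mean than 99.0% of all gene symbols. It is made in the arcuate nucleus and in several other hypothalamic nuclei. Its gene total was 1021, 1332, 1058 and 973 normalized counts in controls 1, 2, 3 and 4. The cannabis-exposed rats 1, 2, 3 and 5 had 915, 1461, 1663 and 1724. Hence 3 cannabis-exposed rats stood above every control, and cannabis 1 stood below every control. With means of 1096 ± 161 (SD, n = 4) and 1441 ± 368 (SD, n = 4), the log2 fold change was 0.36 (95% interval -0.13 to 0.85, P = 0.134 and adjusted P = 0.999 from limma; exact permutation test, P = 0.171). Without cannabis replicate 1 it was 0.57, with an unadjusted P of 0.0118 in the limma fit over all gene symbols, where the exact permutation test was not run. Agrp and Cartpt were the 2 genes of the 5 that fell under 0.05 in any alternative, each with 1 library left out.

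The 3′ ends of Cartpt lay at 2 sites on the minus strand of chromosome 2 of Rnor_6.0, both close to the end of the gene. The distal site, the transcript end, ran from 30125238 to 30125277. The exonic site, from 30125476 to 30125596, had its most frequent read end 258 bases before that of the distal site in the direction of transcription. At the exonic site controls had 514, 652, 604 and 588 normalized counts, and cannabis-exposed rats had 532, 1029, 864 and 903. Here cannabis 1 lay among the controls, and the other 3 again lay above all of them. The log2 fold change at this site was 0.46 (95% interval -0.05 to 0.96, P = 0.0723 and adjusted P = 1.00 from limma; exact permutation test, P = 0.114), the smallest limma P of the 8 sites. Among sites, 0 of the 8 had P under 0.01 and 0 had groups that did not overlap, where over all 98356 sites the shares were 0.381% and 2%. Without cannabis replicate 1, the exonic site had a log2 fold change of 0.66 and passed that threshold in limma, the only one of the 8 to do so in any fit that left out a library. At the distal site the controls had 507, 680, 454 and 385 normalized counts and the cannabis-exposed rats 384, 432, 799 and 821, so that cannabis 1 and 2 lay low and cannabis 3 and 5 lay above all controls. The log2 fold change there was 0.21 (95% interval -0.38 to 0.81, P = 0.466 from limma; exact permutation test, P = 0.486).

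The choice between the Cartpt sites does not depend on the scaling of the libraries. Controls 1, 2, 3 and 4 had 50.4%, 49.0%, 57.1% and 60.4% of Cartpt reads at the exonic site. In cannabis-exposed rats 1, 2, 3 and 5 the share was 58.1%, 70.4%, 52.0% and 52.4%. Cannabis 2 stood apart, with a 95% Wilson interval of 68.5 to 72.3% that lay above the interval of every other library, the nearest being control 4 with 56.0 to 64.6%. These intervals cover counting error only. The mean share was 54.2% ± 5.45 (SD, n = 4) in controls and 58.2% ± 8.62 (SD, n = 4) with cannabis, a difference of 4.0 percentage points (exact permutation test, P = 0.486, and 0.729 after Benjamini-Hochberg adjustment over 3 shares). Without cannabis replicate 2 the difference was -0.0736 points.

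**Figure D2:**
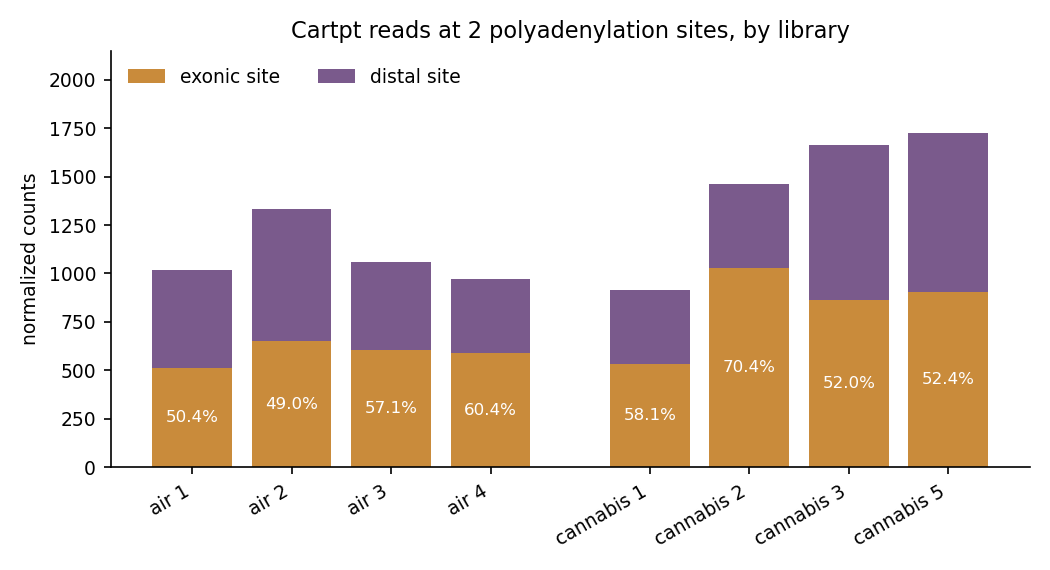
Normalized counts of Cartpt (vertical axis, from 0) in each library, stacked by polyadenylation site, with the percent of Cartpt reads at the exonic site written in its bar. The total is highest in cannabis 5 at 1724 and lowest in cannabis 1 at 915, and the exonic share is highest in cannabis 2 at 70.4%.

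The promoters of 5 of the 6 genes (Tac3 is the exception) were read from RefSeq, build GRCr8, over 250 bases before to 50 after the gene start, and searched on both strands for TGACG, the core of the cAMP response element. The element binds CREB, a factor through which cAMP turns on genes in neurons, and Cartpt and Kiss1 are shown because theirs were the windows that held the core. It was present in 21.2% of all 33469 promoters of that length and in 2 of the 5 here, and Cartpt held the full palindrome TGACGTCA, as 1.83% of all promoters do. The 30 bases around each match are shown, with the matched letters in capitals, as chr2:32991359-32991388 on the minus strand, 142 bases before the start of Cartpt, and chr13:47327098-47327127 on the plus strand, 49 bases before the start of Kiss1.
Cartpt: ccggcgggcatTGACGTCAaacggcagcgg
Kiss1: tatgctgggataCGTCAcccatccagactt
In Kiss1 the core reads on the other strand. These matches describe the letters of the promoters, and 3′ end reads do not measure activity at them.

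Tac3 encodes the precursor of neurokinin B. Its single site had 135, 183, 134 and 137 normalized counts in controls 1, 2, 3 and 4, and 104, 145, 120 and 154 in cannabis-exposed rats 1, 2, 3 and 5. Control 2 was the highest of the 8 rats, and 3 of the 4 cannabis-exposed rats lay below the control mean. Means were 147 ± 23.8 (SD, n = 4) and 131 ± 23.0 (SD, n = 4), with a log2 fold change of the gene total of -0.17 (95% interval -0.64 to 0.30, P = 0.443 from limma; exact permutation test, P = 0.400). The upper bound of that interval was 1.23-fold, the lowest of the 5 genes.

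Kiss1 encodes kisspeptin. It was the least abundant of the group, with 10 to 22 reads per library on 2 sites. Controls had 16.1, 13.2, 8.06 and 21.8 normalized counts and cannabis-exposed rats 12.4, 13.3, 12.8 and 13.8, so the cannabis values lay inside the range of the controls. Means were 14.8 ± 5.76 (SD, n = 4) and 13.1 ± 0.611 (SD, n = 4). The coefficient of variation in the cannabis group, 4.67%, was smaller than the 26.3% that counting of so few reads gives by itself, so the tightness of these values is no measure of the rats. The log2 fold change was -0.09 (95% interval -0.89 to 0.71, P = 0.816 from limma; exact permutation test, P = 0.657). Its sign turned in the fit blocked on replicate number, at 0.09, and without air control replicate 4, at 0.12. In the blocked fit air control 4 and cannabis 5, which have no same-numbered partner, add nothing to the estimate. At the first Kiss1 site, which held 86.3% of its reads, the share was 91.3% ± 6.82 (SD, n = 4) in controls and 79.1% ± 17.0 (SD, n = 4) with cannabis (exact permutation test, P = 0.286). That difference, -12.2 points, was -19.1 points without cannabis replicate 5 and -6.29 points without cannabis replicate 3, and the second site had at most 5 reads in a library.

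For the other genes the counting error was smaller than the spread between rats. In controls the coefficient of variation was 14.7% for Cartpt, 16.2% for Tac3, 37.3% for Pomc and 32.7% for Agrp, where counting alone would give 3.22%, 8.85%, 13.6% and 18.8%. In cannabis-exposed rats it was 25.5%, 17.6%, 20.3% and 22.1%, against 2.47%, 8.21%, 10.3% and 13.5% from counting.

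The levels ran in the order Cartpt, Tac3, Pomc, Agrp and Kiss1 in 8 of 8 libraries. Mean normalized counts over all libraries were 1268, 139, 78.5, 43.4 and 13.9. Over the libraries the ranges of Tac3 and Pomc overlapped, as did those of Pomc and Agrp, whereas those of Cartpt and Tac3 and of Agrp and Kiss1 did not. Within a rat, Pomc was 1.51 to 2.41 times Agrp. The mean ratio of Pomc to Agrp was 1.93 ± 0.356 (SD, n = 4) in controls and 1.74 ± 0.239 (SD, n = 4) with cannabis, values that differ by less than their spread.

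Pomc and Agrp were high or low in the same rats, although they are made by different neurons. Controls 1 and 3 and cannabis 3 were the 3 lowest for both genes, and control 4, cannabis 1 and cannabis 5 were the 3 highest for both. Over the 8 libraries Pearson's r of their log2 values was 0.871 (exact permutation P = 0.00481) and Spearman's rho was 0.905 (exact permutation P = 0.00456). After Benjamini-Hochberg adjustment over the 15 relations computed these became 0.0722 and 0.0685, above 0.05. With deviations from the group means in place of the values, r was 0.850 (permutation P = 0.00756, adjusted 0.0915). For deviations, all 8 libraries were permuted freely across the groups although the group means had been removed. Those P-values are therefore approximate and not exact. Leaving out the 2 libraries farthest from the Pomc median gave r = 0.714 (exact permutation P = 0.142). Dropping the most extreme libraries narrows the range of Pomc and can lower r by itself. This value therefore does not show how far the relation rests on them. Pomc had r = -0.557 with the log2 number of reads of the library (exact permutation P = 0.156), and Agrp r = -0.351 (exact permutation P = 0.398). Within groups the Pomc value was -0.738 (approximate permutation P = 0.0412, adjusted 0.206). No other pair of the 5 genes reached an unadjusted P of 0.05 over the 8 libraries. Cartpt and Tac3 had r = 0.410 (exact permutation P = 0.323) and, as deviations from the group means, 0.793 (approximate permutation P = 0.0122, adjusted 0.0915).

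**Figure D3:**
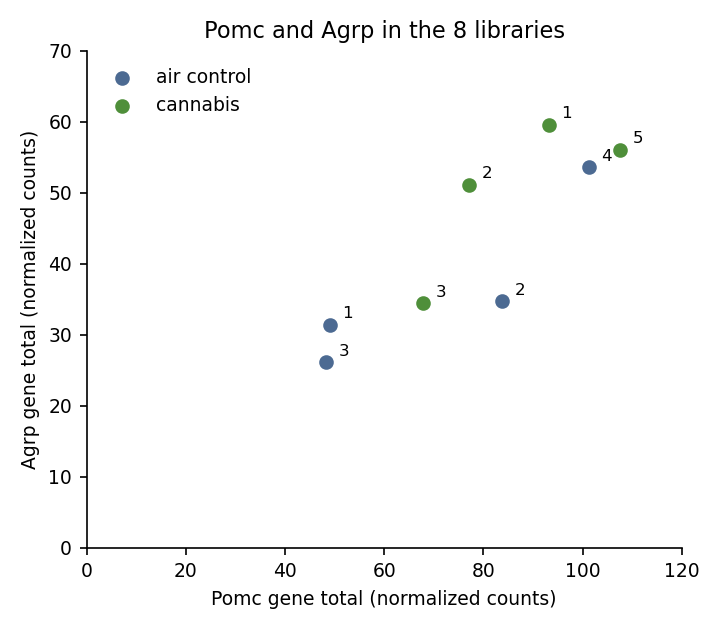
Agrp gene total (vertical axis) against Pomc gene total (horizontal axis), both in normalized counts from 0, for the 8 libraries, with replicate numbers beside the points. Both groups lie along the same rising band, with Pearson's r of 0.871 on the log2 scale over 8 libraries.

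Among 9625 other gene symbols with a mean of at least 20 normalized counts, the 3 whose log2 values followed Agrp, Pomc, Cartpt and Tac3 most closely over the 8 libraries were taken as a description. Kiss1, below that mean, was not examined in this way. For Agrp they were Zfp341 (r = 0.980), Sox21 (r = 0.964) and Pik3ip1 (r = 0.950). For Pomc they were Mettl3 (r = 0.950), RGD1562726 (r = 0.939) and Ino80c (r = 0.937). Cartpt was followed by LOC108351218 (r = 0.982), Rsad1 (r = 0.968) and Fezf1 (r = 0.963). The last is a transcription factor of the ventromedial hypothalamus, with a mean of 113 normalized counts. Tac3 was followed by Hspa8 (r = 0.922), Rbm10 (r = 0.915) and Tdrp (r = 0.914). These are the highest of many values over 8 libraries, and genes of a library share its scaling and depth.

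Genes linked to these peptides were examined in lists. Of 8 receptors listed, which include Oprk1 for dynorphin beside those for the peptides here, 6 had sites and 0 had P under 0.01 in limma. Their median log2 fold change was 0.15, against 0.05 over all gene symbols. Npy1r, a receptor through which NPY promotes feeding, had 34.4 ± 6.80 and 46.6 ± 7.68 normalized counts without and with cannabis (SD, n = 4 each; log2 fold change 0.44, P = 0.129 from limma; exact permutation test, P = 0.0571). The melanocortin receptors Mc3r, at 10.8 ± 4.25 and 11.4 ± 3.46 (SD, n = 4 each), and Mc4r, at 4.97 ± 2.79 and 3.48 ± 3.56 (SD, n = 4 each), were measured at few reads. Tacr3, the neurokinin B receptor, stood at 87.4 ± 13.8 in controls and 87.4 ± 10.4 with cannabis (SD, n = 4 each), with a 95% interval of the log2 fold change from -0.48 to 0.49.

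Of the 9 receptors by which arcuate neurons sense hormones and transmitters, none had P under 0.01, and the median log2 fold change was 0.06. The leptin receptor Lepr had 78.0 ± 10.5 and 77.6 ± 30.1 normalized counts (SD, n = 4 each). Esr1, the oestrogen receptor α, had 79.2 to 133 normalized counts in controls and 88.3 to 150.3 with cannabis. Cnr1, which encodes CB1, had 191 to 207 normalized counts in controls and 240 to 291 with cannabis, without overlap, and a log2 fold change of 0.36 (95% interval -0.04 to 0.75, P = 0.0728 and adjusted P = 0.999 from limma; exact permutation test, P = 0.0286).

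Peptide precursors become active peptides through processing enzymes. Of 5 such genes listed, 4 had sites and 0 had P under 0.01, with a median log2 fold change of 0.06. Scg5, the chaperone of the convertase PC2, had 1549 ± 337 and 1439 ± 550 normalized counts (SD, n = 4 each), and Cpe, carboxypeptidase E, had 1399 ± 904 and 1846 ± 541 (SD, n = 4 each).

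The other peptides and transmitters of arcuate neurons gave 1 gene of 11 at P under 0.01. Th, the rate-limiting enzyme of dopamine synthesis, was lower with cannabis, at 117 ± 42.9 normalized counts against 305 ± 46.6 (SD, n = 4 each; log2 fold change -1.43, P = 9.28e-05 and adjusted P = 0.557 from limma; exact permutation test, P = 0.0286). It is also on the midbrain list above, where Slc6a3 and En1 were lower in the same rats, Pitx3 had a log2 fold change of -1.21 and Foxa1 had 0.75, neither of these at P under 0.01. Pdyn, the precursor of dynorphin, had 114 ± 22.3 in controls and 156 ± 28.98 with cannabis (SD, n = 4 each; log2 fold change 0.45, P = 0.0747 from limma; exact permutation test, P = 0.0857). Which neurons of this bulk tissue its reads came from was not tested. Slc32a1, the vesicular transporter of GABA, had 750.1 ± 277 and 866 ± 373 (SD, n = 4 each).

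Transcription factors that mark arcuate neurons were low but present, and 0 of 8 had P under 0.01, with a median log2 fold change of 0.22. Nkx2-1, a factor of ventral hypothalamic development, had the largest log2 fold change of the list, with 12.6 ± 5.55 and 22.6 ± 6.26 normalized counts (SD, n = 4 each; log2 fold change 0.86, 95% interval 0.01 to 1.71, P = 0.0468 and adjusted P = 0.999 from limma; exact permutation test, P = 0.0857). Otp had 44.9 ± 7.94 normalized counts in controls and 72.0 ± 38.6 with cannabis (SD, n = 4 each), and Isl1 had 28.9 ± 10.3 and 38.7 ± 18.9 (SD, n = 4 each). Bsx, which is needed for the expression of Agrp, had 16.7 ± 6.91 and 16.5 ± 4.45 (SD, n = 4 each). Ghrh, which defines another arcuate population, was near 0, at 1.80 ± 0.487 and 2.93 ± 2.73 (SD, n = 4 each). Over the 5 lists together, 38 of 41 genes had sites. Of these 38, 1 (2.63%) had P under 0.01, against 0.278% of all gene symbols. Th and Cnr1, 2 of the 38 (5.26%), had groups that did not overlap, against 1.98% of all gene symbols. The 1 gene at P under 0.01 was Th, which the study had also called from these same libraries. By quantitative PCR in a separate cohort of rats, the study reported no significant change in TH RNA. The lists were chosen with earlier results of these data known, so these shares are no test of the lists.

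**Figure D4:**
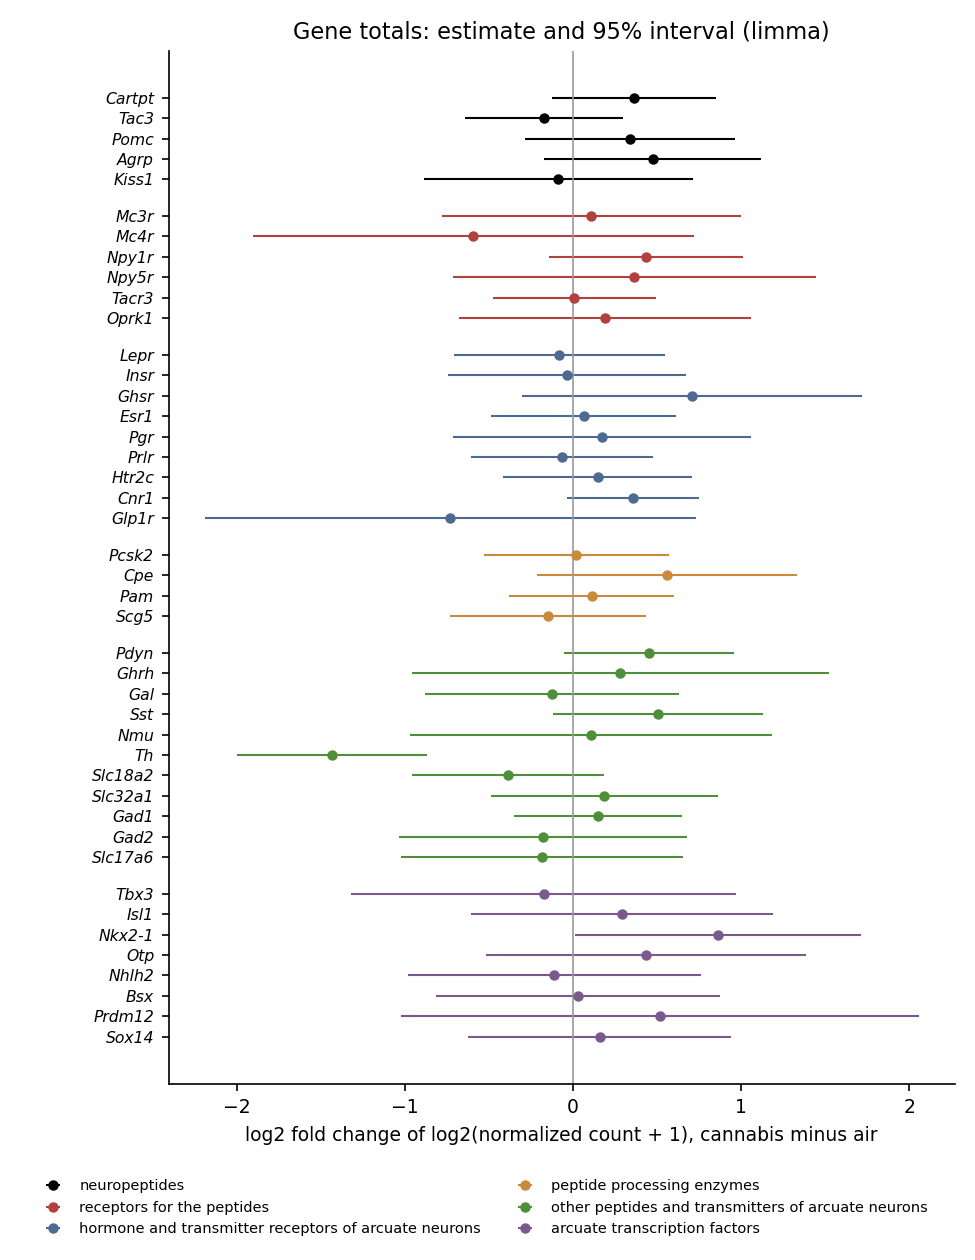
Log2 fold change of the gene total, cannabis minus air (horizontal axis, on the scale of log2(normalized count + 1)), with its 95% interval from limma, for the 5 neuropeptide genes and 38 genes of the pathway lists, coloured by list. The intervals of all 5 neuropeptides include 0, Agrp from -0.17 to 1.12, that of Th lies wholly below 0 and that of Nkx2-1 just above it.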

How the data were processed

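The deposited values are a signal per polyadenylation site, in 1 file per library. Per the methods of the study, the authors removed low-quality reads (FASTX Toolkit), cut Ts from the read start, aligned to Rnor_6.0 by TMAP, grouped read ends as sites and assigned genes with Cuffcompare. Each value is reads divided by a DESeq2 size factor: 100% of values were whole multiples of the smallest, within 0.001 reads, which gave the reads back. A site had at least 16 reads over the libraries.

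Site values were summed by gene symbol. Groups were compared over all 18003 gene symbols and all 98356 sites in limma 3.58.1 under R 4.3.3 (lmFit, then eBayes with trend), using log2(normalized count + 1), with Benjamini-Hochberg adjustment and the P threshold of 0.01 used in the study. Exact two-sided permutation tests (Python 3.11.15, scipy 1.17.1) were run for single values. Within each group, pairs of libraries differed by more than sampling noise, with a chi-square per degree of freedom of at least 6.36. The script was tested on simulated data.

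The genes, lists and alternatives were chosen with earlier results of these data known. All members were named. Other named genes were the 3 most similar patterns per peptide and, of each list, those with P under 0.01 and the 2 with the highest mean. Mc3r, Mc4r, Lepr, Pdyn, Nkx2-1, Bsx, Ghrh and the marker genes were named after their values were seen. Alternatives were a pseudocount of 0.5 or 5, features with mean 10 or more, no trend, the replicate block, each library left out, equal totals, edgeR 4.0.16 on recovered reads and DESeq2 1.42.0 on recovered reads. Cartpt site positions came from the study's site table, matched by symbol and values, and positions of the other sites were not used here.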

Additional observations from a re-analysis of the deposited data

Results flagged for a closer look

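The Tac3 gene total in air control 2, 183 normalized counts, lay far from the other 3 controls at 134 to 137. Its gap to the nearest of them was 0.944 of the range of the group, above Dixon's 95% critical value for 4 samples. It was the only flag in 28 groups of 4 values examined over the gene totals, the sites of genes with more than 1 site and the site shares, where chance flags about 1 in 20. Without air control replicate 2 the log2 fold change of Tac3 was -0.06, against -0.17 with it.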

How the results depend on the processing

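The 5 gene totals had P above 0.01 under every alternative run. Log2 fold changes ranged from 0.34 to 0.67 for Agrp, 0.21 to 0.57 for Cartpt, 0.19 to 0.54 for Pomc and -0.29 to -0.06 for Tac3, with no change of sign. Kiss1 was 0.0901 with the replicate block and -0.33 to 0.12 with each library left out. Same-numbered rats did not deviate together over gene totals (r from -0.23 to 0.09 over 3 pairs, against -0.39 to 0.49 over 13 others). The block changed no call among the 5 genes. Air control 4 and cannabis 5 have no same-numbered partner, so the blocked estimates came from the 3 pairs alone. The block moved the second Cartpt site to -0.0797. With each library left out, 0 to 1 of the 8 sites passed, the second Agrp site had -0.00542 to 0.77, and the share differences were -1.34 to 1.13 points for Agrp, -0.0736 to 6.09 for Cartpt and -19.1 to -6.29 for Kiss1. Genes at P under 0.01, 50 in the fit reported, were 29 with a mean of at least 10, 98 without the trend, 24 with the replicate block, 76 with DESeq2 and 30 to 90 with a library left out (30 without air control 1, 31 without cannabis 5, 84 without air control 3, 90 without cannabis 1). Sites, 375 as reported, were 44 with a mean of at least 10, 229 with the block, and 227 to 617 with a library left out (227 without cannabis 5, 231 without air control 1, 594 without cannabis 1, 617 without air control 3). Correlations that turned sign with 1 change at a time were Cartpt with Pomc (-0.0108 within groups), Cartpt with Agrp (-0.392 within groups, -0.109 without the 2 farthest libraries), Tac3 with Agrp (0.0590 and 0.634) and reads with Cartpt (-0.00216 without the 2 farthest). With both changes together, reads with Kiss1 (0.841), Pomc with Kiss1 (-0.503) and Tac3 with Pomc (-0.129) turned too. The causes were not tested. The precision is limited by the 4 rats a group and, for Kiss1, by its 117 reads.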
